A study of Homo sapiens with 14 samples.

Results

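The 40 genes described here, of 20037 protein-coding genes in all, are the human Wnt ligands, their Frizzled and LRP receptors, and the core effectors and the inhibitor DKK1. Their surroundings were read in maps of GATA3, a zinc-finger transcription factor of the luminal breast epithelium, made by chromatin immunoprecipitation and sequencing (ChIP-seq). Joining the peaks of 12 libraries that shared 1 bp or more gave 78999 regions. A region belonged to a Wnt gene when it overlapped the gene span or the 50 kb on either side of it, which held for 230 regions. The rule uses gene positions alone, so being near a gene does not make that gene a target.

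The cells were MDA-MB-231, an established line from triple-negative breast cancer, with wildtype GATA3 (WT) or with the point mutants A442M or G444E. Each form was present untagged and with a FLAG tag at its C-terminal end (WT-FLAG, A442M-FLAG, G444E-FLAG), and each of the 6 groups had 2 libraries. One antibody against GATA3 served in all groups, no treatment was given, and cells were taken on day 3. The series compares GATA3 binding between these forms, and its design text states that the tag keeps protein levels stable in each of them. A further pair of samples with an empty vector was not analysed here, so no background list stands beside these regions. The promoter of the GATA3 construct and whether a group is a single clone are not given in the sources used for this study. A peak list holds no expression values, so the cell line could not be checked against its marker genes.

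Wnt ligands are secreted lipid-modified proteins that bind Frizzled receptors together with the co-receptors LRP5 or LRP6. In the resting cell a destruction complex built on the scaffolds AXIN1, AXIN2 and APC marks beta-catenin (CTNNB1) for degradation. Ligand binding halts that complex, and beta-catenin then enters the nucleus and acts through the DNA-binding factors TCF7, TCF7L1, TCF7L2 and LEF1. DKK1 is a secreted antagonist of the LRP co-receptors. In the breast this pathway is known for its part in stem and progenitor cells of the gland.

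Start sites came first. RefSeq promoters (GRCh38.p14, 250 bases before to 50 after the gene start) were matched for 30 of the 40 genes, and regions overlapped 6 of them, in WNT3, WNT2B, FZD1, FZD5, TCF7L2 and DKK1. Among all 15843 coding genes with such a promoter, 14.8% were overlapped, against 20.0% of these 30. A region called in all 12 libraries lay over 1 of the 30 (WNT3), or 3.33%, against 1.38% of all coding promoters. The next lines show 3 of the 6 promoters. That of WNT3 was taken because every library called the region overlapping it, and that of FZD1 because 7 libraries did. That of DKK1 was taken because it holds the motif of TCF and LEF factors. Overlap was scored on the joined region, so a library that called it need not have its own peak over the promoter. Each is written 5′ to 3′ along the strand of its gene, and capitals mark matches to the TCF/LEF motif in either orientation.
WNT3: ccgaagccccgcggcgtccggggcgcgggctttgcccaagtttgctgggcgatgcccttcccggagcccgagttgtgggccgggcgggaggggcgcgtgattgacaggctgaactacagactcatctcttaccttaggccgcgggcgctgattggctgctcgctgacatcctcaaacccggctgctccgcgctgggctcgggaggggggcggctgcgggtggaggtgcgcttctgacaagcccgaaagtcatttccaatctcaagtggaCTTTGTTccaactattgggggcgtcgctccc
FZD1: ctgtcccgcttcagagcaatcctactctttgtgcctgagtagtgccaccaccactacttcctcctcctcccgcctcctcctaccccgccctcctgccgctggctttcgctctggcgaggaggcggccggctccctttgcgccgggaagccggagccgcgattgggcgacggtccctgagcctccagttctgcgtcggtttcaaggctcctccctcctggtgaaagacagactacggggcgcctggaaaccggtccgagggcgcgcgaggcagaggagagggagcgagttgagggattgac
DKK1: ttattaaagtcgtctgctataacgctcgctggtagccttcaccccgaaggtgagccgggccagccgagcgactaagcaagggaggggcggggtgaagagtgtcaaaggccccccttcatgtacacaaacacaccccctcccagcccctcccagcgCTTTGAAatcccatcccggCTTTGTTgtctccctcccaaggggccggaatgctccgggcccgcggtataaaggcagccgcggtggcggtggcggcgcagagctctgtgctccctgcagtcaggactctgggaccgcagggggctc

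The WNT3 promoter lies at chr17:46818643-46818942 on the minus strand, that of FZD1 at chr7:91264183-91264482 on the plus strand, and that of DKK1 at chr10:52314031-52314330 on the plus strand. The TCF/LEF motif was searched on both strands in its forms AACAAAG and then ATCAAAG, further TACAAAG and finally TTCAAAG. It matched 2 of the 30 promoters (6.67%), against 11% of all coding promoters. In DKK1 the matches began 95 and 76 bases before the start site (CTTTGAA at the first and CTTTGTT at the second). In WNT3 the match began at base 20 after it (CTTTGTT again), outside the region. The GATA motif, searched on both strands in its forms AGATAA and then AGATAG, further TGATAA and finally TGATAG, matched WNT2 and WNT8B, again 2 of 30 promoters, against 19.7% of all. None of the 6 overlapped promoters held it in these 300 bases. These are matches of letters and not measured sites.

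GATA3 regions were found around most Wnt genes, as around most protein-coding genes, and several of the strongest were shared by all groups. At least 1 region lay in the window of 37 of the 40 genes, and 88.4% of all 20037 protein-coding genes had one. WNT5A and WNT7A, both ligands, and the receptor FZD10 had none in any library. A region called in all 12 libraries lay near 19 genes (47.5%), against 40.6% of all protein-coding genes. All 12 libraries shared 36 of the 230 regions (15.7%), while 56 (24.3%) came from a single library, close to the background of 13.8% and 23.5% over all regions. When peaks had to cover at least 50% of a region, 8 regions near 8 genes were called in all libraries. A Wnt gene had a median of 5.5 regions, or 4.42 per 100 kb of window, and a protein-coding gene a median of 4, or 3.06 per 100 kb.

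**Figure D1:**
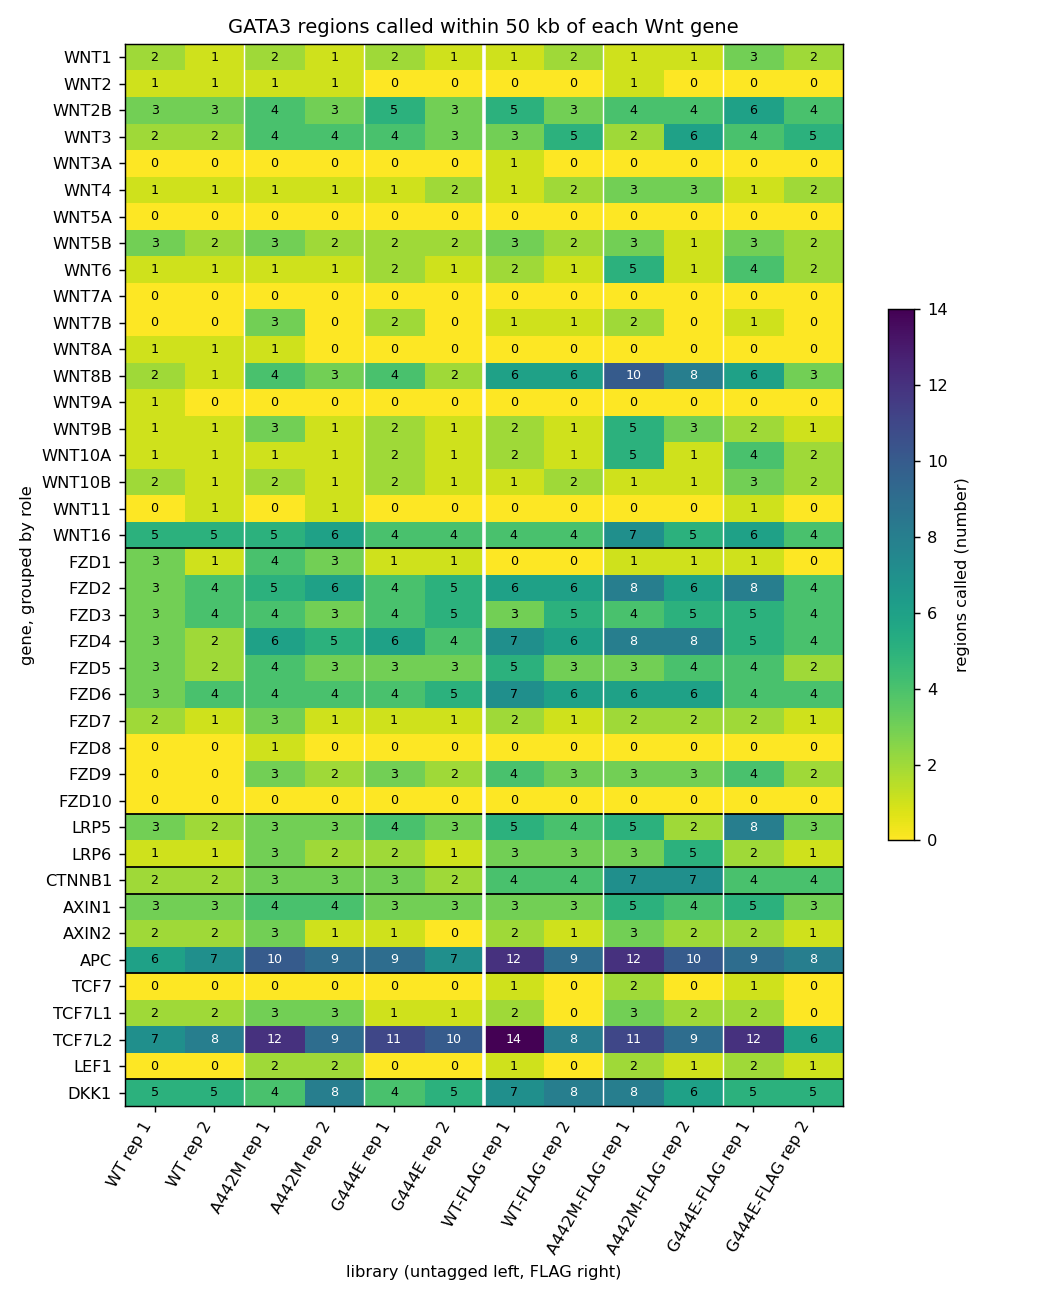
Number of regions called in each of the 12 libraries (columns, untagged on the left and FLAG on the right) within 50 kb of each of the 40 genes (rows, grouped by role with black lines between roles). TCF7L2 and APC have the highest numbers, up to 14 and 12 in a library, and the rows of WNT5A, WNT7A and FZD10 are 0 throughout.

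**Figure D2:**
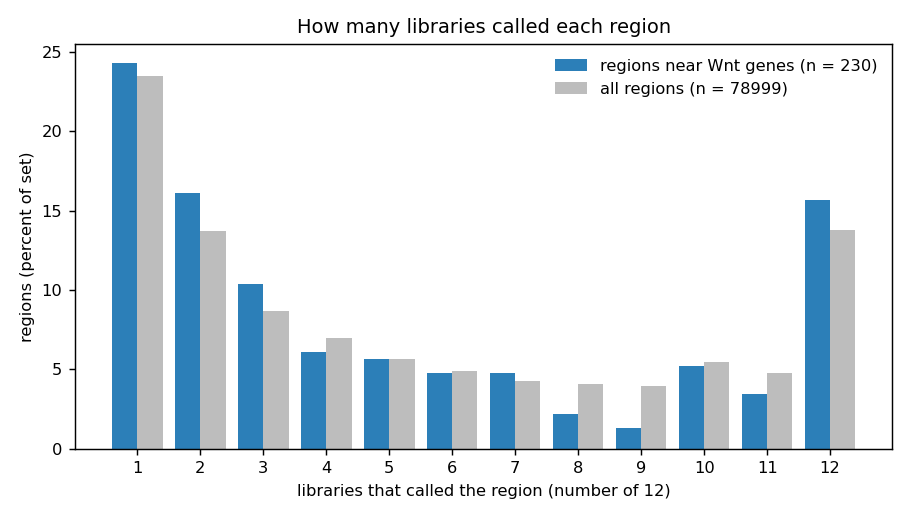
Share of regions (percent, vertical axis) by the number of libraries that called them (horizontal axis), for the 230 regions near Wnt genes and for all 78999 regions. Both sets peak at 1 library (24.3% and 23.5%) and at 12 libraries (15.7% and 13.8%).

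Where these regions lay depends in part on the window, which adds 50 kb to either side of every gene span. Of the 230, 88 overlapped a member's span and 142 lay outside it, and no share expected from the window size was worked out. For 79 the nearest end of a protein-coding gene was that of another gene, and 14 lay in the windows of 2 Wnt genes that neighbour each other. Those neighbours are WNT1 with WNT10B, WNT6 with WNT10A, and WNT3 with WNT9B, so their counts are not separate. Among the genes with a known start site, the centre of a region came within 1 kb of it in 6 cases. The gene table gives spans alone, so positions within exons or introns are not stated.

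Ligand genes differed widely in the number of regions. Of the 19, 17 had a region, 6 had one called in every library, and their median was 5. WNT16, a ligand known from bone and skin, had 9 regions and each library called between 4 and 7 of them. Every library shared 4. These 4 lay 30304 to 45659 bp from its span, inside the neighbouring gene CPED1. WNT2B had 7 regions, of which 3 were shared by every library, and 1 of these overlapped its own span. The other shared ones lay outside it, inside ST7L. WNT8B, a ligand of the developing forebrain, had 10 regions and 1 in all libraries. The shared one lay 22653 bp outside its span, inside the nearby gene SEC31B, as did several others of the 10. Its untagged libraries called 2 and 1 (WT), 4 and 3 (A442M) and 4 and 2 (G444E). Its FLAG libraries called 6 and 6 (WT-FLAG), 10 and 8 (A442M-FLAG) and 6 and 3 (G444E-FLAG). The lowest FLAG library, with 3, lay within the untagged range of 1 to 4, and the other 5 FLAG libraries lay above it. The FLAG lists were longer than their untagged counterparts, and the share of all genes with such a lean was not counted. WNT3 had 8 regions, WNT9B 7 and WNT4 3. WNT5B, WNT7B, WNT6 and WNT10A had 6 each, and WNT1 and WNT10B 5 each, none shared by all libraries. WNT3A, WNT8A, WNT9A and WNT2 had 1 region each, and WNT11 had 2.

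Scores are the authors' own value per peak, and a region is ranked here by the percentile of its highest peak in that library's list, from 0 for the weakest to 100 for the strongest. Percentiles of lists that differ in length show no change between libraries. Regions called in all 12 libraries ranked high in general. The median of their median percentiles was 76.9 near Wnt genes and 79.2 over all such regions of the series. The highest ranked region of all 230 lay 4959 bp outside WNT4, a ligand required for side branching of the mammary ducts. This region (chromosome 1, 22111573 to 22112354) had a median percentile of 98.8. It stood at 84.1 and 78.1 in the WT lists, 97.4 and 95.2 in A442M, 98.8 and 97.4 in G444E, 99.5 and 99.3 in WT-FLAG, 99.8 and 98.8 in A442M-FLAG, and 99.2 and 99.1 in G444E-FLAG. Both untagged WT lists ranked it lowest. WNT3, a ligand of early embryonic axis formation, had its strongest region (chromosome 17, 46818802 to 46819987) beginning 110 bp beyond its span at the promoter printed above. That region had a median percentile of 92.4, and its lowest values were 77.9 and 83.8, both in A442M-FLAG lists.

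Frizzled genes are the receptors that bind the ligand at the cell surface. Of the 10, 9 had a region, 6 had one called in all libraries, and the median was 6. FZD2 had 8 regions, 3 of them shared by all libraries, and FZD4, a receptor of retinal vessel growth, had 10 with 2 shared. The stronger FZD4 region (chromosome 11, 86999857 to 87000674) lay 44462 bp outside the gene, with a median percentile of 90.5. FZD7, a receptor studied in triple-negative breast cancer, had 4 regions. Its shared one (chromosome 2, 202043383 to 202044157), 4942 bp outside the gene, had percentiles between 86.7 and 96.7 with a median of 94.4. At FZD2 the region from 44608476 to 44609434 on chromosome 17 was called everywhere but ranked from 2.9 in 1 WT list to 84.1 in 1 G444E-FLAG list. FZD3 had 10 regions and FZD5 had 7, with 1 shared by all in each, and FZD6 had 9 with 2 shared. FZD9 had 5 and none shared by all. FZD8 had 1 region, called in 1 A442M library.

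FZD1, with 5 regions, had more calls in the untagged libraries. Its untagged libraries called 3 and 1 regions (WT), 4 and 3 (A442M) and 1 and 1 (G444E). Its FLAG libraries called 0 and 0 (WT-FLAG), 1 and 1 (A442M-FLAG) and 1 and 0 (G444E-FLAG). Each FLAG library thus lay at or below the lowest untagged one, though with lists cut to equal length the 16 calls became 7. The share of all genes with such a split was not counted. The region at its promoter (chromosome 7, 91264259 to 91264716) was called in 7 libraries with a median percentile of 13.5. These were 1 WT, both A442M and both G444E libraries, 1 A442M-FLAG and 1 G444E-FLAG library. A region 21672 bp outside the gene, from 91242267 to 91242761, was called in the 4 untagged WT and A442M libraries and in no other, at percentiles of 47.7, 63.5, 13.4 and 23.8.

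Co-receptor genes each had 1 region shared by all libraries, out of 9 at LRP5 and 7 at LRP6. Inside LRP6, the region from 12190200 to 12191039 on chromosome 12 had a median percentile of 92.1 and a range from 77.3 to 96.4. LRP5 had its shared region inside the gene as well, with a median percentile of 72.3. CTNNB1 itself had 9 regions, and 1 was shared by all libraries, 27355 bp outside the gene and inside ULK4. Its calls were 2 and 2 in WT, 3 and 3 in A442M, 3 and 2 in G444E, 4 and 4 in WT-FLAG, 7 and 7 in A442M-FLAG, and 4 and 4 in G444E-FLAG. No FLAG library called fewer than 4 and no untagged library more than 3, which is a description of 1 gene and carries no test. Within each genotype and replicate number the FLAG list was the longer one. The untagged WT and A442M libraries also stand apart on contig peaks, as given below. How many of all genes separate in this way was not counted.

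The destruction complex held some of the strongest shared regions. APC, the scaffold often lost in colorectal cancer, had 18 regions, of which 3 were called everywhere and 7 in at least 8 libraries. Its region from 112735529 to 112736478 on chromosome 5, inside the gene, had a median percentile of 98.3 and lay between 96.0 and 99.5 in every list. A second shared region 5788 bp outside APC had a median percentile of 87.0. A region from 112695081 to 112695669 was missing from 1 A442M-FLAG library alone, with a median percentile of 90.3. AXIN1, the limiting scaffold of the complex, had 5 regions, and 3 inside the gene were called in all libraries. The highest of them (chromosome 16, 331397 to 332649) ranked at a median percentile of 94.6, from 83.5 to 97.3, and the next (334714 to 335687) at 90.6. AXIN2, itself a well-known target of Wnt signalling, had 5 regions and none in all libraries. Its most frequent one (chromosome 17, 65588010 to 65588652) was called in 11 libraries and missing from 1 G444E library.

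Among the nuclear factors TCF7L2 had 23 regions, 21 of them overlapping the gene, in a window of 317.4 kb. Only 2 of the 23 were called in all libraries, with median percentiles of 50 and 49.5. Libraries called between 6 and 14 TCF7L2 regions, the lowest in 1 G444E-FLAG and the highest in 1 WT-FLAG library. TCF7L1 had 5 regions, LEF1 5 and TCF7 2, and none was called in all libraries. The TCF/LEF genes had a region in all libraries in 1 of 4 cases, and 5.71% of their 35 regions were shared, against the background of 13.8%. LEF1 had 2 and 2 calls in A442M and none in untagged WT or G444E, and with the tag 1 and 0 in WT-FLAG, 2 and 1 in A442M-FLAG, and 2 and 1 in G444E-FLAG. These 11 calls became 4 with a score of at least 10 and 2 with equal lists.

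DKK1 had the densest set, 13 regions in a window of 103.4 kb. Of these, 4 were called in all libraries, at median percentiles of 94.5, 82.9, 75.4 and 19.2. The strongest (chromosome 10, 52351839 to 52352661) lay 34182 bp outside the gene and ranked between 82.9 and 97.3. The weakest (52316643 to 52317441) overlapped the gene and ranked between 11 and 53.2, so a shared region need not be a strong one. The region over the promoter printed above (52314015 to 52314444) was called in 1 A442M and 1 WT-FLAG library, at percentiles of 1.9 and 3.2.

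**Figure D3:**
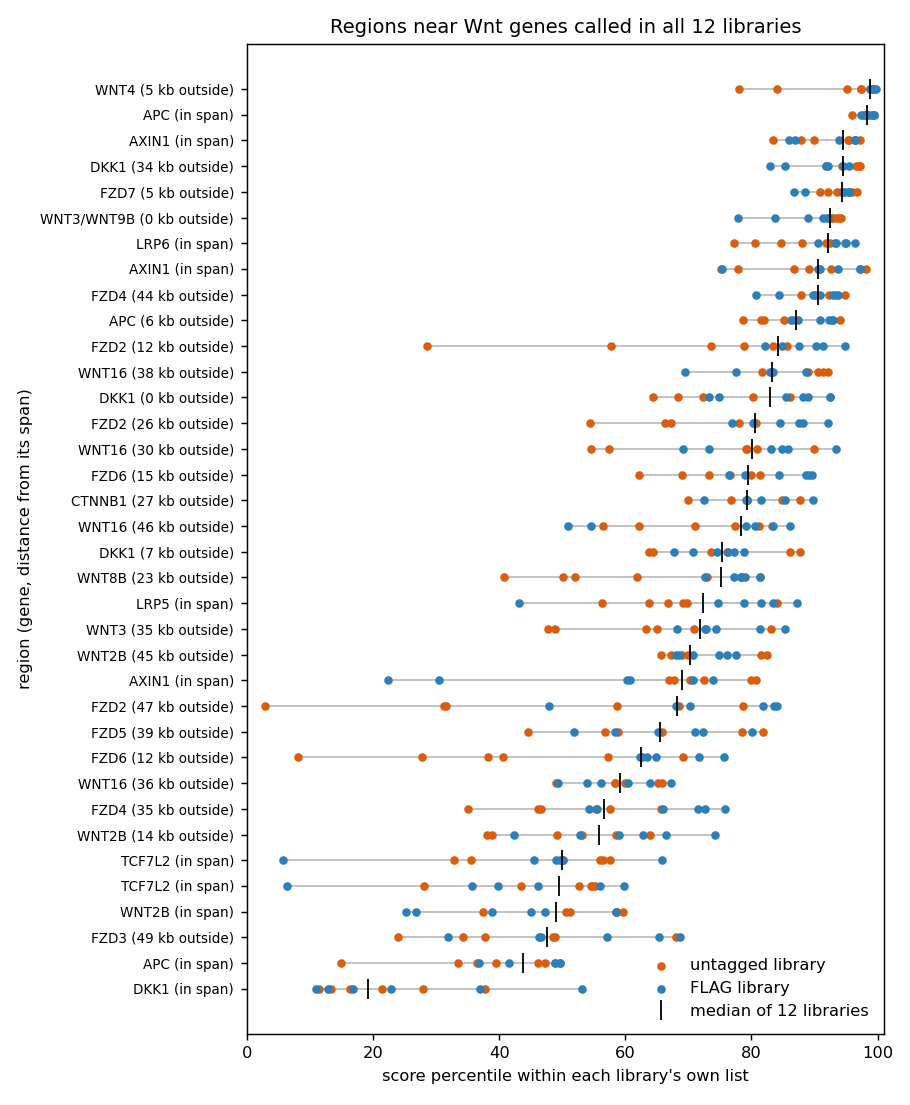
Score percentile within each library's own list (horizontal axis) for the 36 regions near Wnt genes that all 12 libraries called (vertical axis, with the distance from the gene span). Points are libraries, untagged in orange and FLAG in blue, the grey line is the range and the black tick the median, which runs from 19.2 at DKK1 to 98.8 at WNT4.

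**Figure D4:**
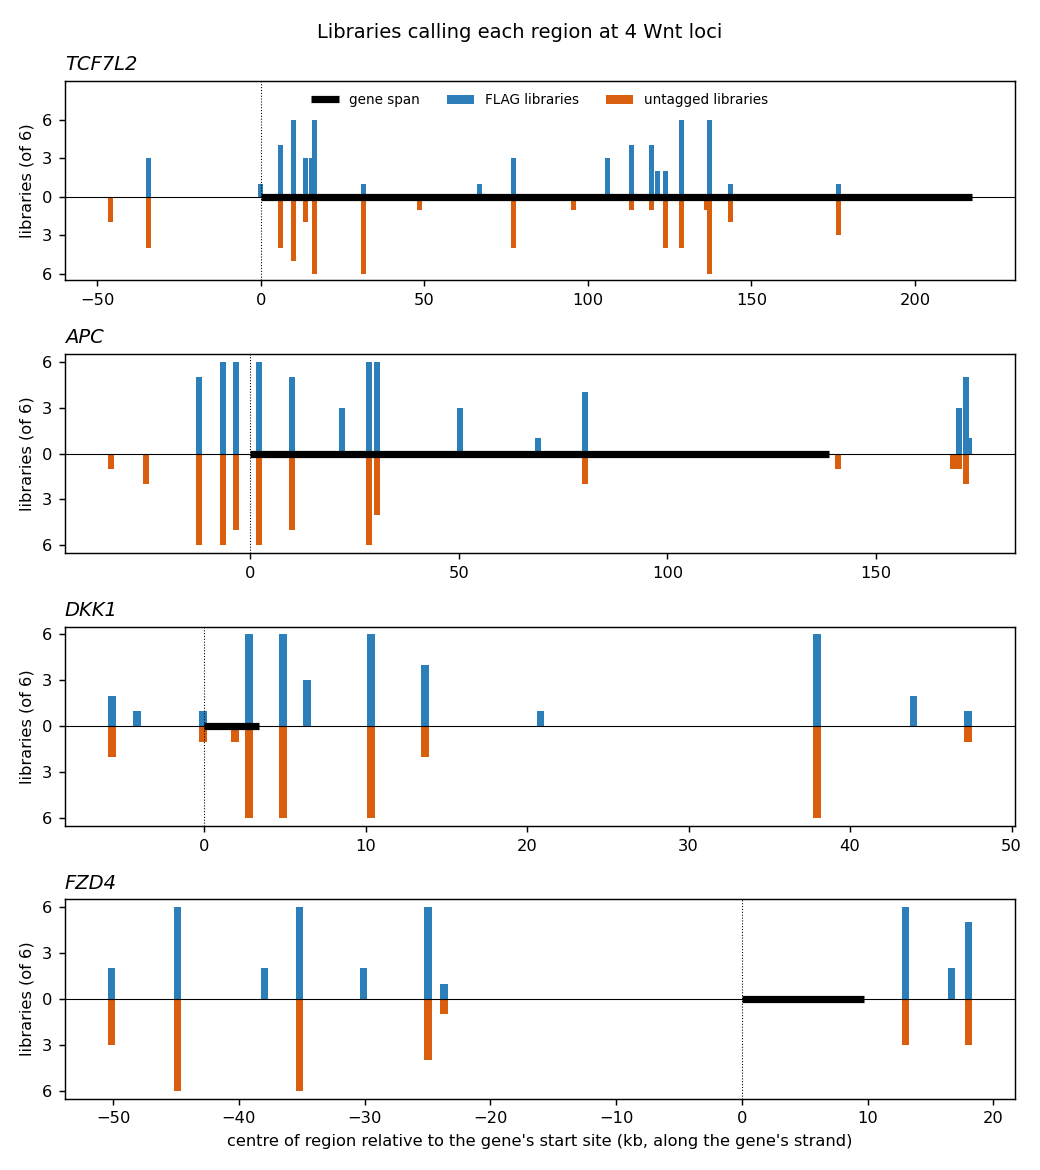
Number of FLAG libraries (upward bars, of 6) and untagged libraries (downward bars, of 6) that called each region at TCF7L2, APC, DKK1 and FZD4, by distance of the region's centre from the start site in kb along the gene's strand. The thick black line is the gene span, over which 21 of the 23 TCF7L2 regions lie.

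Regions near Wnt genes made up a similar part of every list. FLAG libraries called 110.2 ± 21.1 of the 230 regions and untagged libraries 85.33 ± 15.6 (SD, n = 6 each), a ratio of 1.29, and over all regions the ratio was 1.31. The 6 FLAG libraries ranged from 77 to 138 with a median of 115, and the 6 untagged ones from 69 to 110 with a median of 83, so the ranges of the tag states overlapped. Within each genotype and replicate number the FLAG library called more in 6 of 6 cases, 116 and 96 against 73 and 69 for WT, 138 and 114 against 110 and 94 for A442M, and 120 and 77 against 90 and 76 for G444E. Each of these FLAG lists was also the longer one. The WT libraries called 71 ± 2.83 and WT-FLAG 106 ± 14.1 (SD, n = 2 each, as in the next sentences). A442M called 102 ± 11.3 and A442M-FLAG 126 ± 17.0. G444E called 83 ± 9.90 and G444E-FLAG 98.5 ± 30.4, with libraries at 76 and 90 without the tag and at 77 and 120 with it, so these ranges overlapped. Regions near Wnt genes made up between 0.260% and 0.308% of each library's regions, and 0.276% in FLAG and 0.280% in untagged libraries together. Since the members were known when the comparison was made, no p is given for these sums.

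The 4 untagged WT and A442M libraries had more peaks on unplaced contigs than the other 8 (57 to 110 against 14 to 24). Comparisons that cross this divide cannot be told apart from a batch. Within the 8 other libraries the tag comparison is left for G444E alone, where G444E-FLAG had 1.19 times the Wnt regions of G444E and 1.21 times all regions. Lists held 25248 to 51694 peaks, and the reads behind them are unknown, so a missing call is not shown to be an empty site.

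No single region near a Wnt gene passed the test for the tag. Of the 230 regions 35 had enough calls to reach p = 0.05 in Fisher's exact test of 6 FLAG against 6 untagged libraries. In this exact test none had a Benjamini-Hochberg adjusted p below 0.05, and neither had any of the 11777 regions tested in the whole series (0% called, lowest adjusted p = 0.104). The smallest p this Fisher's exact test can give is 0.00216. Over so many regions a single one could not pass the adjustment alone, so the 0 does not show that calls were alike. Without adjustment 1 of these 35 Wnt regions had a p below 0.05 with more FLAG libraries, against 1329 of the 11777 tested regions (11.3%). With more untagged libraries it was again 1 of 35, against 192 of 11777 (1.63%). The FLAG lists were the longer ones, and whether the Wnt regions differ from these shares was not tested. With the replicate number as a stratum, the same counts were 1 and 1, and no adjusted p near a Wnt gene was below 0.068.

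Both of these regions ranked high where they were called. The region near WNT1 and WNT10B (chromosome 12, 48942209 to 48942695) lies inside ARF3, 35627 bp outside the span of WNT1, the founding mammary oncogene of the family. It was called in 6 of 6 FLAG libraries and in 1 of 6 untagged ones, a G444E library (Fisher's exact test, p = 0.0152, adjusted p = 0.117). Its percentiles were 82.8 and 65.0 in WT-FLAG, 87.4 and 82.2 in A442M-FLAG, 79.5 and 77.2 in G444E-FLAG, and 65.0 in the G444E list. The region inside TCF7L2 (chromosome 10, 112981527 to 112981872) showed the opposite pattern, with 6 of 6 untagged libraries and 1 FLAG library, of G444E-FLAG (Fisher's exact test, p = 0.0152, adjusted p = 0.117). It ranked at 96.6 and 95.2 in WT, 90.0 and 86.9 in A442M, 78.5 and 68.4 in G444E, and 77.1 in the G444E-FLAG list. Calls at both regions were the same with a score of at least 10 and with lists cut to equal length (7 libraries each). Without the 4 untagged WT and A442M libraries, 0 Wnt regions had an unadjusted p below 0.05 for the tag. That leaves 6 FLAG against 2 untagged libraries, where only a complete split can reach such a p. Both regions were also called on their other side there, so neither could reach it and the 0 says nothing about them.

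The test for mutation found no Wnt region either. With 8 mutant against 4 WT and WT-FLAG libraries, 70 of the 230 regions could reach p = 0.05, and 0 did so even without adjustment (Fisher's exact test, lowest p = 0.0808, adjusted p = 1). Over the whole series 0 of 26654 tested regions passed after adjustment (0% called), and 0.206% and 0.105% had an unadjusted p below 0.05 with more and with fewer mutant libraries. The smallest p of this Fisher's exact test is 0.00202, so here too a single region could not pass the adjustment alone. With the replicate number as a stratum of the exact test 1 Wnt region reached p = 0.0444 before adjustment. That region, near FZD6 (chromosome 8, 103343631 to 103344154), was called in 4 of 4 WT and WT-FLAG libraries and in 3 of 8 mutant ones.

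Pairs of groups were then compared by one-sided regions, which both libraries of the first group had and the second group lacked altogether. With 2 libraries on each side the smallest p of an exact test is 0.33, so these are counts without a test, each given beside the share over all regions. Pairs that share a group share its libraries.

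Untagged A442M had 12 Wnt regions that WT lacked (5.22%, background 7.02%), and WT had 1 that A442M lacked (0.435%, background 0.689%). G444E had 11 that WT lacked (4.78%, background 5.09%), and WT had 5 that G444E lacked (2.17%, background 3.66%). A442M had 8 that G444E lacked (3.48%, background 5.36%), and G444E had 2 that A442M lacked (0.870%, background 0.892%). The region that led both mutants against WT lies inside TCF7L2 (chromosome 10, 113078380 to 113079244), with lower percentiles of 70.4 in A442M and 82.4 in G444E. Regions near FZD9, FZD6 and CTNNB1 followed on the A442M side, and near FZD6 and FZD9 on the G444E side. On the WT side against G444E the leading ones lay near FZD1, WNT8A, WNT16 and WNT2, and the 1 against A442M was the FZD6 region named above. WNT2, LEF1, WNT16 and FZD1 led on the A442M side against G444E, and FZD6 and the neighbours WNT6 and WNT10A made up the other side.

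Among FLAG groups the counts again leaned to A442M-FLAG, which has the longest lists on average. A442M-FLAG had 17 Wnt regions that WT-FLAG lacked (7.39%, background 5.97%) and WT-FLAG had 4 the other way (1.74%, background 1.58%). A442M-FLAG had 19 that G444E-FLAG lacked (8.26%, background 9.0%), and 2 stood on the other side (0.870%, background 1.12%). WT-FLAG had 8 that G444E-FLAG lacked (3.48%, background 2.19%) and G444E-FLAG had 1, near LEF1 (0.435%, background 0.465%). That LEF1 region had a lower percentile of 0.5, among the weakest peaks of its list. The highest A442M-FLAG region absent from WT-FLAG lies inside TCF7L2 (113055970 to 113056633), at percentiles of 83.1 in both A442M-FLAG lists and 44.8 in 1 G444E-FLAG list. WNT4, WNT8B and DKK1 came next, with regions called in the A442M-FLAG libraries alone. Against G444E-FLAG the leading regions lay near WNT8B, FZD6, CTNNB1 and WNT4. WT-FLAG regions absent from G444E-FLAG were led by TCF7L2, FZD6, FZD9 and APC. Against A442M-FLAG, those of WT-FLAG lay near FZD4, TCF7L2, FZD5 and LRP5, at low lower percentiles of 10.2, 8.4, 2.0 and 1.4. Those of G444E-FLAG lay near TCF7L2 (10.4) and near WNT1 and WNT10B (5.4).

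With the tag, WT-FLAG had 24 Wnt regions absent from WT (10.4%, background 12.3%), and WT had 6 absent from WT-FLAG (2.61%, background 3.17%). A442M-FLAG had 27 absent from A442M (11.7%, background 10.8%), and A442M had 7 the other way (3.04%, background 4.06%). G444E-FLAG had 2, near FZD3 and LEF1, absent from G444E (0.870%, background 2.19%), and G444E had 1, near FZD6, the other way (0.435%, background 0.429%). TCF7L2, FZD9, LRP6 and FZD4 led on the WT-FLAG side, and TCF7L2, WNT1 with WNT10B, LRP6 and WNT8B on the A442M-FLAG side. On the untagged side the TCF7L2 region at 112981527 led in WT and in A442M, with lower percentiles of 95.2 and 86.9. With lists cut to equal length several of these leanings shrank and some turned. A442M had 7 against WT with 6 on the other side, and A442M-FLAG had 6 against G444E-FLAG with 5 on the other side. The direction turned for A442M against G444E (1 and 3), for A442M-FLAG against WT-FLAG (4 and 5) and for G444E-FLAG against G444E (0 and 5). No share over all regions stands beside these equal-list counts. Whether the turns are particular to Wnt regions was therefore not tested.

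**Figure D5:**
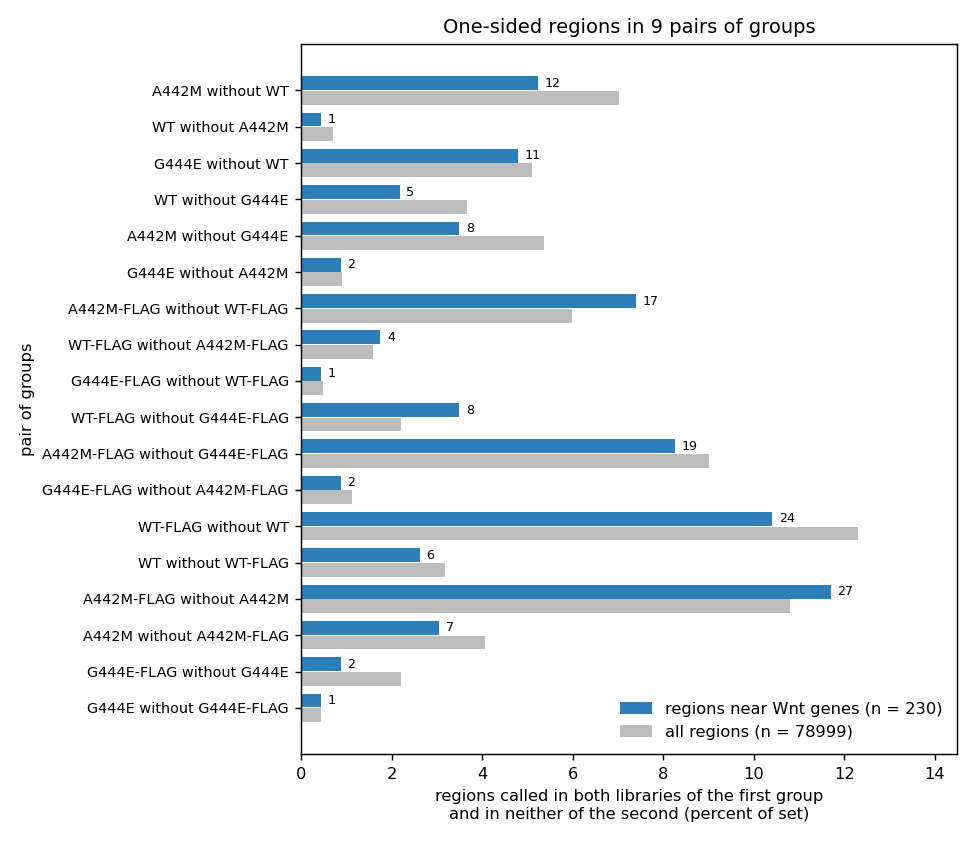
Regions called in both libraries of the first group and in neither of the second (percent of the set, horizontal axis) for 9 pairs of groups in both directions, near Wnt genes (blue, with their number) and over all regions (grey). The blue bars run from 1 region to the 27 of A442M-FLAG without A442M, and blue and grey lengths follow each other.

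Some patterns over all groups were chosen after their values were seen. In 7 of the 230 regions (3.04%, background 2.61%) all 10 other libraries had a call and neither untagged WT library did. Of these 7, 5 lay near Frizzled genes, whose windows held 59 of the 230 regions. They were 2 close together at FZD9 (inside BAZ1B, the neighbouring gene) and 1 each at FZD4, FZD5 and FZD6. The others lay near CTNNB1 (inside ULK4) and in TCF7L2. Whether Frizzled genes hold more of this pattern than other genes was not tested. The stronger FZD9 region (chromosome 7, 73454276 to 73454975) ranked at 68.1 and 77.3 in A442M, 75.5 and 61.1 in G444E, 83.3 and 84.7 in WT-FLAG, 92.2 and 92.4 in A442M-FLAG, and 75.1 and 73.4 in G444E-FLAG. It was thus well above the weakest peaks in each list that had it. The TCF7L2 region at 113078380 had percentiles between 70.4 and 98.1 in its 10 lists. In the 10 libraries that had them, all 7 were still called with a score of at least 10, and with equal lists 1 of the 7, at FZD9, was left with 9.

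Regions confined to both A442M-FLAG libraries numbered 10 (4.35%, background 4.00%), and 1 region, inside FZD5, was confined to both WT-FLAG libraries (0.435%, background 0.133%). The FZD5 region ranked at 6.4 and 2.0 there, and 0 libraries called it with a score of at least 10 or with equal lists. In 27 regions (11.7%, background 10.8%) at least 1 of the 4 untagged WT and A442M libraries had a call and none of the other 8 did. At least 2 of those 4 libraries had the call in 7 of them (3.04%, background 4.05%). FLAG libraries alone called 73 regions (31.7%, background 30.2%), and untagged libraries alone 33 (14.3%, background 12.2%). No Wnt region was called in all 6 FLAG and no untagged library (background 0.291%), and none was confined to both libraries of WT (background 0.495%), A442M (0.310%), G444E (0.00886%) or G444E-FLAG (0.0481%).

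Other genes of the pathway, 59 in a separate list, gave similar counts. A region called in all libraries lay near 28 of them (47.5%), and 14.4% of their 459 regions were shared by all. Secreted modulators had such a region in 7 of 14 cases, secretion and membrane genes in 9 of 20, and cytoplasmic and nuclear genes in 12 of 25. ROR1, a receptor for WNT5A outside the beta-catenin branch, had 57 regions with 12 shared by all libraries, and PRICKLE2, of the planar polarity branch, had 33 with 9. DKK3, a relative of DKK1, had 12 regions with 6 shared, and FRZB, a secreted decoy of Frizzled, had 7 with 3. CELSR2, a polarity cadherin, had 14 with 3, and PORCN, the enzyme that attaches lipid to Wnt ligands, had 14 with 2. WIF1, a secreted inhibitor, and AMER1, a partner of APC, had no region.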

How the data were processed

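ChIP-seq peak lists of 12 libraries were used. MACS2 2.1.4, FastQC and build hg38 are named, per the submitters' processing notes, while aligner, control and depth are not given in the sources used for this study. The deposited score, 1 positive value per peak and at least 5 in each list, has a scale the files do not name and ranked peaks only within a list. Peaks were called per library, not on pooled samples. Replicates are not labelled as separate cultures, and their spread, on which every p-value rests, may be technical. Both tests count the 2 libraries of a group as independent units, which the sources do not show.

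Gene spans came from RefSeq GRCh38.p14 (the hg38 chromosomes), and all coordinates are 1-based. A region counted as called in each library with a peak in it, and took the percentile of its highest peak. Calls were tested with a two-sided Fisher's exact test, adjusted by Benjamini-Hochberg over all regions able to reach p = 0.05, in Python 3.11.15 with scipy 1.17.1, and the test was tested on simulated data. The simulation shuffled calls over all 12 libraries, so it did not keep the differences in list length. Alternatives were a stricter score, equal lists, another window or overlap, strata and left-out libraries. Replicate numbers served as a stratum that pairs samples by number. Differences between replicates 1 and 2 correlated at 0.113 to 0.290 over 15 pairs of groups. Replicate 1 had the longer list in every group, so these correlations cannot show that the numbers pair samples. Members and lists were chosen with earlier results of these data known. Named genes were those with most shared regions, the 10 highest ranked shared regions, up to 4 regions per side of a pair, and 6 further pathway genes. Others are named as members of the set.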

Additional observations from a re-analysis of the deposited data

Results flagged for a closer look

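In the 6 FLAG libraries, the share of called regions that lay near Wnt genes was highest in G444E-FLAG replicate 1, at 0.308%, and its distance from the others was above the 95% limit of Dixon's test for 6 values (0.625 of the range). The other 5 FLAG libraries had 0.276%, 0.263%, 0.275%, 0.269% and 0.260%. Chance gives such a value in about 1 of 20 sets, and 2 measures were looked at in each of 2 sets of libraries.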

How the results depend on the processing

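Counts of regions moved with the definitions, and the tests did not gain a call. With 10 kb in place of 50 kb, the windows held 118 regions, 17 of them called in all libraries, near 10 genes, and with the gene spans alone 88, 11 and 7. Narrower windows hold fewer regions by construction, and no share over all genes or regions was counted for them. Equal lists (25248 peaks each) left 144 regions. When peaks had to cover at least 50% of a region, 8 regions near 8 genes were called in all libraries, 3.5% of the Wnt regions and 3.5% of all regions. Leaving out each library in turn gave 215 to 231 regions, 36 to 38 called in all that were left, near 19 to 20 genes, and 0 to 0 adjusted calls in either test.

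The replicate block, which pairs samples by number, left 0 adjusted calls for tag and for mutation, as did strata of genotype or tag state, a score of at least 10, equal lists, coverage and, for the tag, leaving out untagged WT and A442M. As in the main tests, a single region could not pass the adjustment alone under these settings. Without G444E replicate 1 or 2, A442M-FLAG replicate 1 or G444E-FLAG replicate 2, the regions with an unadjusted p below 0.05 for the tag numbered 7, 4, 4 and 4 in place of 2. No share over all regions was counted under these or the next settings, so the changes are not read as particular to Wnt regions. They numbered 0 without the 4 untagged WT and A442M libraries, 1 with 10 kb windows, and 2 or 3 without any other single library.

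One-sided counts moved as follows. With a score of at least 10, WT without A442M, G444E-FLAG without WT-FLAG, G444E-FLAG without A442M-FLAG and G444E-FLAG without G444E fell to 0 each, and G444E without A442M and WT-FLAG without A442M-FLAG to 1 each. With equal lists, A442M without WT gave 7 and the reverse 6, A442M without G444E 1 and the reverse 3, A442M-FLAG without WT-FLAG 4 and the reverse 5, and WT-FLAG without G444E-FLAG 4 with 0 in reverse. A442M-FLAG without G444E-FLAG gave 6 and the reverse 5, A442M-FLAG without A442M 12, and G444E-FLAG without G444E 0 with 5 in reverse. The equal lists hold fewer peaks by construction. For these counts, under either setting, no share over all regions is given, so they are not read as particular to Wnt regions. Leaving out a library was not run for these pairs, whose rule needs both.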
